A study of Mus musculus with 14 samples.

Results

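The glycolysis and hypoxia genes described here are 31 mouse genes named by symbol, out of 18489 protein-coding genes with a locus on the mm9 build. They comprise 3 transporters of glucose or lactate, 14 enzymes of glycolysis and its control, 3 genes that direct pyruvate, 3 genes of oxygen sensing and 8 other genes that low oxygen is known to induce. All 31 had an mm9 locus, and they were found in each file by coordinates, not by their measured values. The study used LEPC, a mouse cell line of strain C57BL/6 after 3 passages, in 3 groups that share this background. One group is a control labelled scr, one overexpresses the microRNA miR-93-5p, and one overexpresses a mutated miR-93-5p, called mutant below. RNA-seq and sequencing of mRNA recovered with the microRNA (called the pulldown, for which the series text names biotin in the miR-93-5p group) covered all 3 groups, and peaks of the histone marks H3K4me3, H3K27me3 and H3K9me3 covered scr and miR-93-5p. No oxygen level is given in the labels, no group is labelled as hypoxic, and neither the delivery of the microRNA nor the number of clones behind a group is stated there. Each assay had 1 library per group, so no difference below has a replicate check or a test, and each is a difference between libraries.

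Glycolysis splits glucose into pyruvate in the cytosol, and pyruvate is then reduced to lactate or oxidised in the mitochondrion. When oxygen is scarce the transcription factor HIF-1, whose oxygen-regulated subunit is encoded by Hif1a, escapes the prolyl hydroxylases encoded by the Egln genes and binds short RCGTG elements near its target genes. Its known targets include most glycolytic enzymes, glucose transporters, the angiogenic factor Vegfa and the mitophagy receptor Bnip3, and Hif1a and Vegfa have been reported as targets of the miR-17 family, to which miR-93-5p belongs.

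The microRNA is shown with 3 relatives because all 4 carry one seed, the bases that pair with targets. Capitals mark bases 2 to 8, AAAGUGC, of the RefSeq mature sequences.
mmu-miR-93-5p: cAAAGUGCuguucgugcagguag
mmu-miR-17-5p: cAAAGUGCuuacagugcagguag
mmu-miR-20a-5p: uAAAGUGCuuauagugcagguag
mmu-miR-106b-5p: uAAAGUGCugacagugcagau
The gene of miR-93-5p lies on the minus strand of GRCm38.p6 at chr5:138165574-138165596. The sequence of the mutated microRNA is not given in the sources used here, so whether it keeps this seed is not known.

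Promoters are shown for 6 of the members with large differences in at least 1 assay below, from 250 bases before to 50 after the RefSeq start in GRCm38.p6. Capitals mark ACGTG or GCGTG, the 2 forms of the core hypoxia element, on either strand, so that CACGT and CACGC are the same words read on the other strand.
Aldoa, chr7:126799129-126799428, minus strand: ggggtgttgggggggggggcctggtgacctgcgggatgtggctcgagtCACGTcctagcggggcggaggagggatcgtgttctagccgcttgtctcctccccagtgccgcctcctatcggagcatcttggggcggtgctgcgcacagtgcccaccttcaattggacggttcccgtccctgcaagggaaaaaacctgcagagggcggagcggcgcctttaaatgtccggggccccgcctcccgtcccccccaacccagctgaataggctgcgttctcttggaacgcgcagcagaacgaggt
Pkm, chr9:59656977-59657276, plus strand: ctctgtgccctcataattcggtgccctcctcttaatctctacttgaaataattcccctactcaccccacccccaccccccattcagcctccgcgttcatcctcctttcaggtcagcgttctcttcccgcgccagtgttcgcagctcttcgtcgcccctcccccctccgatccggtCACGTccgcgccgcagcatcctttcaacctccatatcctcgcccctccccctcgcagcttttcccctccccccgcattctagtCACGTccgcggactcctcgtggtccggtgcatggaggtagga
Bnip3, chr7:138909457-138909756, minus strand: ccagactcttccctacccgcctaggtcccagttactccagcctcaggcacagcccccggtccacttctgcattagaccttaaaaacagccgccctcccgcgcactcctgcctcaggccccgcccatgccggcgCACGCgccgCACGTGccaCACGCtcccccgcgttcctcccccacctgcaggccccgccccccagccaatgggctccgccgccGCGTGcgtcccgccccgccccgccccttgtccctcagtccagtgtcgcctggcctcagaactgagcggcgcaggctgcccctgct
Ankrd37, chr8:45999801-46000100, minus strand: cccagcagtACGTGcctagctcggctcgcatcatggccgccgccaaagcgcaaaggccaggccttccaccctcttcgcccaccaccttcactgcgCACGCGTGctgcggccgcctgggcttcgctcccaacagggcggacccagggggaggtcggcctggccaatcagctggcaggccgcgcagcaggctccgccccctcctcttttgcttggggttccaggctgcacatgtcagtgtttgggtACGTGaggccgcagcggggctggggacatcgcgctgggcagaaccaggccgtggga
Ddit4, chr10:59951721-59952020, minus strand: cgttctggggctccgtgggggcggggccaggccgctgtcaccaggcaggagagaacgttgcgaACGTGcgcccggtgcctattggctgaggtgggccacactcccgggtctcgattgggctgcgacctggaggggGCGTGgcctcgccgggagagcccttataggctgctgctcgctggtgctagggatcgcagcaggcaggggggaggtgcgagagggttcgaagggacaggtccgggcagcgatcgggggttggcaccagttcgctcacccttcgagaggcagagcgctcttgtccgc
Pdk3, chrX:93832101-93832400, minus strand: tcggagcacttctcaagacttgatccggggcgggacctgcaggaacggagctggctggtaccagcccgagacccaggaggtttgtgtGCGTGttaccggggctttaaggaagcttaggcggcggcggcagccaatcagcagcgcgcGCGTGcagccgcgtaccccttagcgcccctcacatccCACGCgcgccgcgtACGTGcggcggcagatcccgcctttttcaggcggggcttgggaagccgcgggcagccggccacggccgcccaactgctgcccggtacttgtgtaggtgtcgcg
The Bnip3 window holds 5 such words, the Ankrd37 and Pdk3 windows 4 each, the Ddit4 and Pkm windows 2 each and the Aldoa window 1. Overlapping words on the 2 strands were counted separately, so the single stretches CACGTG and CACGCGTG hold 2 words each. Aldoa has 2 further windows, with 1 and 0 words, and Pkm has 1 further window with 0. The word in the further Aldoa window is the one already shown, because these windows overlap. The most in any member window was 7, at Ldha. RefSeq promoters were found for 29 of the 31 members, 42 windows in all, and 27 of those 29 genes (93.1%) had at least 1 word in a window, against 52.3% of the 17491 protein-coding genes in the table. Genes differ in their number of windows, and windows of a gene can overlap, so that 1 word can count in several windows. Counted per window, 81.0% of the 42 member windows held a word, against 49.3% of all 21262. ACGTG occurred at 75.9% of member genes and 23.2% of all genes, and GCGTG at 65.5% and 41.4%. CACGTG, which contains ACGTG and is also the E-box bound by Myc family proteins, occurred at 17.2% of member genes and 8.91% of all. These are matches of letters in a window and not measured binding sites.

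RNA-seq libraries held between 16822 and 18328 loci and pulldown libraries between 14815 and 18031, each locus with an FPKM (fragments scaled to transcript length and library size) and a lower and an upper bound. A locus was assigned to a gene when neither overlapped anything else better and they shared at least 0.5 of their joint length. Of the listed markers, the epithelial keratin Krt8 was at 658 (scr), 230 (miR-93-5p) and 283 FPKM (mutant). Krt18, another such keratin, differed less, at 306, 200 and 253 FPKM. Of 6 biliary or progenitor markers, Spp1 was at 531, 1076 and 1077 FPKM and Sox9 at 8.22, 11.1 and 6.91. Krt19 was matched in miR-93-5p and mutant (418 and 522 FPKM), Krt7 in scr and mutant (7.27 and 2.47), Epcam in scr alone (0.840) and Prom1 in none. Hnf4a, a hepatocyte regulator, was at 40.6, 7.22 and 27.4 FPKM. Alb was at 1.30 and 1.08 in scr and mutant, and Ttr, higher in mutant, at 0.969 and 2.04. Neither was matched in miR-93-5p, and the hepatocyte genes Afp, Apoa1 and Cps1 had no matched locus. None of the 4 endothelial and 5 mesenchymal markers was matched, and of 5 leukocyte markers Csf1r (7.63, 1.16 and 1.82 FPKM) and, in scr alone, Cd68 (1.56 FPKM) were. The epithelial cadherin Cdh1 was at 30.7, 1.52 and 3.87 FPKM, so the 3 libraries differed in epithelial and hepatocyte markers, whose part in the results below was not tested.

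In the RNA-seq libraries most glycolysis and hypoxia genes that could be compared differed by under 2-fold between groups. Of the 31, 23 were matched in all 3 libraries, and all 23 had a mean FPKM of at least 1. Another 3 (Pfkp, Tpi1 and Pdk3) were matched in 1 or 2 libraries, and Slc2a3, Slc16a3, Car9, Egln3 and Adm in none. On the scale log2(FPKM + 1), 0 of 23 members were 2-fold or more higher in miR-93-5p than in scr and 0 were lower by that much, where 2.97% and 3.86% of all 8423 genes compared were. Between miR-93-5p and mutant 0 were past 2-fold in either direction, against 1.85% of all genes higher and 1.77% lower. Between mutant and scr only Aldoa passed, higher in mutant, and 0 were lower, against 2.64% and 3.63% of all genes. With such small shares over all genes, these counts do not set the members apart. In plain FPKM ratios P4ha1 also passed 2-fold for miR-93-5p over mutant (2.17). So did Pfkfb3 (0.479) and Ddit4 (0.498) for mutant over scr. The members' median log2 ratio was 0.10 for miR-93-5p over scr (0.03 over all genes), 0.29 for miR-93-5p over mutant (0.01) and -0.14 for mutant over scr (0.01). These 3 contrasts share libraries and are not independent. The miR-93-5p library held the highest value for 12 of 23 members (52.2%, against 33.5% of all genes), and the mutant library the lowest for 14 (60.9%, against 30.4%). In such bulk libraries fewer cells expressing a gene and less RNA per cell cannot be told apart.

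**Figure D1:**
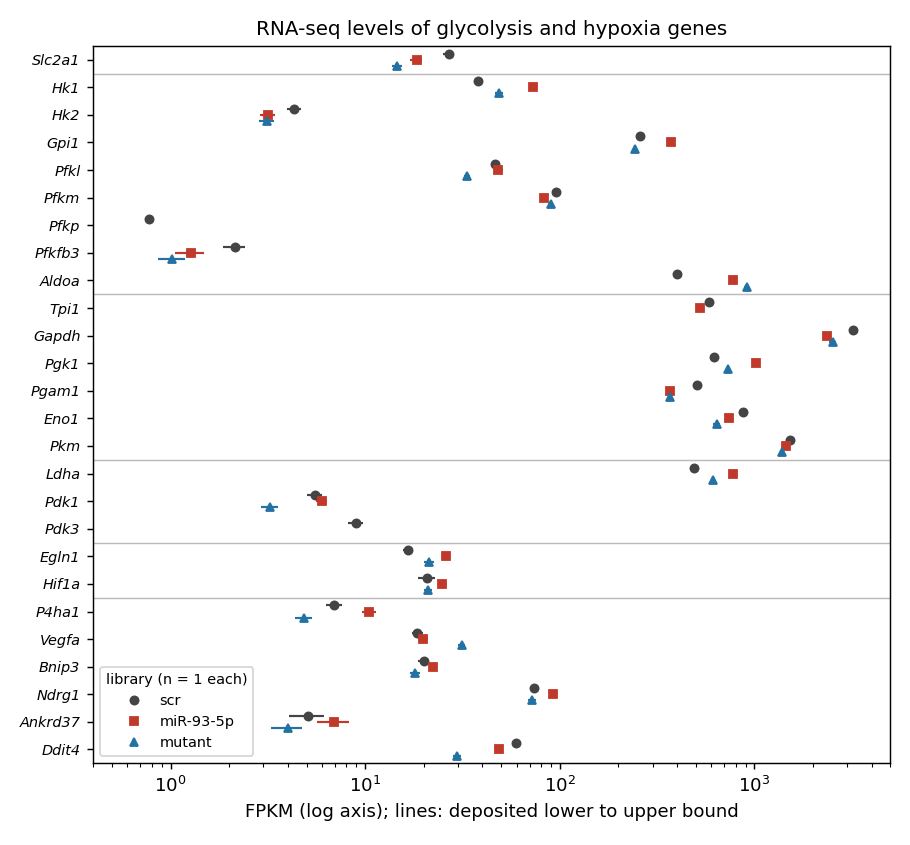
RNA-seq level of each matched member in FPKM (log axis) in the libraries of scr, miR-93-5p and mutant (n = 1 each), with the deposited bounds as lines and grey lines between roles. Bounds more than 10 times the value are not drawn (Gpi1 in mutant, Pfkp in scr). Values of a gene lie close together beside the distance between genes, and Pdk3 has a point in scr alone.

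Glucose entry depends on the Slc2a transporters. Slc2a1, the widespread glucose transporter GLUT1, was at 26.9 FPKM for scr, 18.4 for miR-93-5p and 14.6 for mutant. Its scr value was the highest, and the ratio of miR-93-5p to scr was -0.52 on the log2(FPKM + 1) scale. Slc2a3, the high-affinity transporter GLUT3, had no matched locus; a stretch of 134 to 171 bp inside its 73832 bp gene was listed at 45.6, 71.7 and 552 FPKM. Those 3 values rest on few fragments. Implied fragments, the count that would produce bounds of the listed width by sampling alone, were 30.0, 19.4 and 25.0. Slc16a3, the lactate exporter MCT4, had no matched locus in any library.

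Upper glycolysis traps glucose as a phosphate and cleaves it. Hk1, the constitutive hexokinase, was at 38.1 FPKM for scr, 72.9 for miR-93-5p and 48.8 for mutant, so that miR-93-5p was highest at a log2 ratio over scr of 0.92. Hk2, the inducible hexokinase, was at 4.33, 3.17 and 3.14 FPKM, highest in scr. The regulatory enzyme Pfkfb3, which makes the activator of phosphofructokinase, was at 2.13, 1.27 and 1.02 FPKM, again highest in scr. Its plain ratio of miR-93-5p to scr, 0.594, was the lowest of the members compared, against 0.684 for Slc2a1, which is lowest only with the pseudocount of 1. Among phosphofructokinases, Pfkl was at 46.7, 48.3 and 33.3 FPKM and Pfkm at 95.1, 82.6 and 89.9, while Pfkp was listed at 0.779 FPKM in scr alone with bounds too wide to use. Pfkm, the muscle form, was the most abundant of the 3 in every RNA-seq library.

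Aldoa, the aldolase that cleaves fructose bisphosphate, had the largest RNA-seq difference among the 23 members matched in all 3 libraries. It was at 400 FPKM for scr (bounds 383 to 418), 776 for miR-93-5p (767 to 785) and 911 for mutant (879 to 943). Both overexpressing libraries were above scr, at log2 ratios of 0.95 and 1.18, and mutant was above miR-93-5p. Gpi1, the isomerase before it, was at 260, 371 and 244 FPKM, highest in miR-93-5p, but the bounds of the mutant value were too wide to use.

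Lower glycolysis yields ATP and pyruvate, and its most abundant enzymes were Gapdh and Pkm, which had the highest FPKM of all members in each RNA-seq library. Gapdh, the dehydrogenase often used as a reference gene, was at 3201 FPKM for scr, 2355 for miR-93-5p and 2520 for mutant, with scr highest. Pgk1, the first ATP-forming step, was at 620, 1021 and 735 FPKM and was highest in miR-93-5p, at a log2 ratio over scr of 0.72. Pgam1 was at 508, 370 and 369 FPKM, Eno1 at 875, 742 and 639, and Pkm, the last enzyme of the pathway, at 1515, 1460 and 1383. Pgk1 was thus the 1 enzyme of the 5 compared that was above scr in miR-93-5p. Tpi1 was at 582 and 525 FPKM in scr and miR-93-5p, and in mutant it lay inside a longer locus of 19121 bp at 132 FPKM, which was not matched. Several of these enzymes, Gapdh among them, have processed pseudogenes, and how shared reads were counted is not given in the sources used here.

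Ldha, which makes lactate from pyruvate, was at 492 FPKM for scr, 777 for miR-93-5p and 610 for mutant. It was highest in miR-93-5p, at a log2 ratio over scr of 0.66. Pdk1, a kinase that shuts pyruvate dehydrogenase, was at 5.50, 5.98 and 3.24 FPKM, lowest in mutant.

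Pdk3, another kinase of pyruvate dehydrogenase, was the member with a sharp RNA-seq contrast. The scr library held a locus over nearly its whole 67595 bp gene (mm9 chrX:91009946-91077540) at 8.94 FPKM, with bounds of 8.13 and 9.75 and 485 implied fragments. In miR-93-5p and in mutant no locus overlapped the gene at all, although those libraries list values down to 0.164 and 0.136 FPKM. Of 7430 genes with at least 5 FPKM in scr, 26 (0.35%) had no overlapping locus in either other library; this count was made after the values of Pdk3 had been seen. Of its neighbours on the chromosome, 3 had values in all 3 libraries, Pola1 at 11.5, 15.2 and 12.2 FPKM, Zfx at 7.52, 9.72 and 8.78, and Eif2s3x at 66.7, 58.8 and 65.5. Another neighbour, Pcyt1b, was matched in miR-93-5p alone, at 0.977 FPKM.

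Oxygen sensing was represented by Hif1a and Egln1. Hif1a was at 20.8 FPKM for scr (bounds 18.7 to 22.8), 24.9 for miR-93-5p (23.7 to 26.0) and 21.1 for mutant (20.1 to 22.1). These levels are close, with log2 ratios of 0.25 for miR-93-5p over scr and 0.23 over mutant, and in scr the gene was split into 2 loci, of which the better match covered 0.53 of the joint length. Egln1, the main hydroxylase that marks HIF-1 for destruction, was at 16.6, 26.1 and 21.3 FPKM, highest in miR-93-5p. No RNA-seq locus overlapped Egln3, the hypoxia-inducible hydroxylase.

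Other hypoxia targets were measured for 6 of 8 genes. Vegfa was at 18.5 FPKM for scr, 19.9 for miR-93-5p and 31.3 for mutant, so mutant was highest and scr and miR-93-5p differed by 0.09 on the log2 scale. P4ha1, a collagen prolyl hydroxylase, was at 6.95, 10.5 and 4.83 FPKM, the largest difference of miR-93-5p over mutant among the members at 0.98. Its plain FPKM ratio was 2.17, and the pseudocount of 1 keeps it just under 2-fold. Ddit4, an inhibitor of mTORC1 signalling, was at 59.6, 48.5 and 29.6 FPKM, lowest in mutant at a log2 ratio over scr of -0.98. Bnip3 was at 20.0, 22.3 and 18.0 FPKM, Ndrg1 at 74.0, 92.8 and 72.2, and Ankrd37 at 5.10, 6.93 and 4.01, with miR-93-5p highest for all 3. No locus was matched to Car9, a carbonic anhydrase at the cell surface, or to Adm, which encodes the vasodilator adrenomedullin.

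FPKM divides by a transcript length that was assembled separately in each library, whereas implied fragments do not. In implied fragments, scaled to a median ratio of 1, Aldoa (3.73), Hif1a (2.06) and Bnip3 (1.24) were past 2-fold for miR-93-5p over scr. These are 3 of the 22 members compared, and the share of all 8123 genes past 2-fold in this measure was not counted. For Hif1a the split locus in scr held 410 implied fragments against 1800 in miR-93-5p. Implied fragments stay low for many abundant genes: 130 of the 284 genes of at least 200 FPKM in scr, Gapdh among them, had fewer than 2600. For such genes they may carry little information on level, which was not tested.

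In FPKM, the enzymes compared in the miR-93-5p pulldown, except Pgam1, were far below both other libraries. Bnip3, Ankrd37, Ddit4 and P4ha1, by contrast, were 6 to 8 times their scr level in the mutant pulldown. Over mutant, however, Bnip3 (-2.60) and Ankrd37 (-1.64) were low in miR-93-5p like the enzymes, whose median log2 ratio was -2.11, and Ndrg1 differed from scr by under 2-fold in both libraries. Of the 31 members, 17 were matched in all 3 pulldown libraries, all with a mean of at least 1 FPKM. Another 8 (Slc2a1, Hk1, Hk2, Pfkm, Pfkp, Pdk1, P4ha1 and Hif1a) were matched in scr and mutant and not in miR-93-5p, and Slc2a3, Pfkfb3, Slc16a3, Car9, Egln3 and Adm in none. Loci of the miR-93-5p pulldown were short, spanning a median of 2121 bp, where scr had 9176.5 bp and mutant 9086 bp, and matched genes numbered 5747 there, 8496 in scr and 8376 in mutant. The 8 unmatched members stand beside this: P4ha1, for example, had loci covering at most 0.47 of the joint length, the fuller at 5.32 FPKM.

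For miR-93-5p over scr, 2 of 17 members were higher by 2-fold or more and 10 were lower by that much, against 11.8% and 33.5% of all 5244 genes compared. The members' median log2 ratio was -2.10 and that of all genes -0.48. For miR-93-5p over mutant, 1 was higher and 12 lower, against 4.88% and 26.5%, with medians of -1.64 and -0.43. For mutant over scr, 5 were higher and 5 lower, against 21.8% and 22.9%, with medians of -0.23 and -0.06. The last contrast could also be made over genes matched in those 2 libraries alone, an alternative chosen after the values had been seen. There 7 of 25 members were higher and 9 lower, against 17.4% and 24.4% of 7508 genes.

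**Figure D2:**
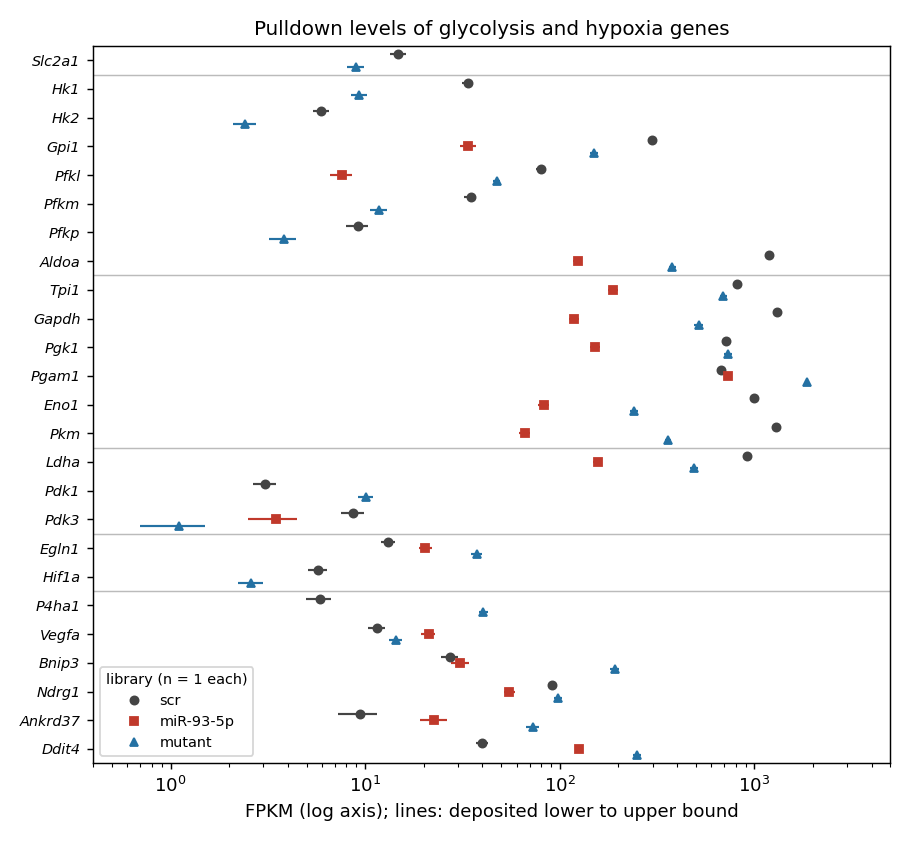
Pulldown level of each matched member in FPKM (log axis) in the libraries of scr, miR-93-5p and mutant (n = 1 each), with the deposited bounds as lines and grey lines between roles. From Gpi1 to Ldha the miR-93-5p squares, where a locus was matched, stand left of both other libraries except for Pgam1, and the mutant triangles of Bnip3, Ankrd37, Ddit4 and P4ha1 stand right of scr.

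Of the 9 glycolytic enzymes compared, 8 stood 2-fold or more below scr in the miR-93-5p library, against 33.5% of all 5244 genes. All 9 stood that far below mutant, against 26.5%. Fewer did so in implied fragments, given below with the shares among abundant genes. Pkm was at 1293 FPKM for scr (bounds 1248 to 1338), 66.2 for miR-93-5p (61.8 to 70.7) and 359 for mutant (346 to 371). It was lowest in miR-93-5p, its log2 ratio being -4.27 against scr, the largest difference of any member, and -2.42 against mutant. Eno1 was at 995, 82.6 and 240 FPKM, Gapdh at 1313, 119 and 517, and Aldoa at 1193, 123 and 379. All 3 shared one order, with scr highest and miR-93-5p lowest, and log2 ratios of miR-93-5p over scr between -3.57 and -3.26.

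The remaining enzymes varied more. Gpi1 was at 297, 33.9 and 150 FPKM and Pfkl at 79.6, 7.57 and 47.4, in the same order as Pkm. Tpi1 was at 811, 188 and 692 FPKM and Pgk1 at 710, 152 and 733, so that for these scr and mutant were close and miR-93-5p was low. Pgam1, the mutase between the ATP-forming steps, went another way, at 672 FPKM for scr (642 to 702), 730 for miR-93-5p (698 to 762) and 1872 for mutant (1855 to 1889). The mutant library was highest for Pgam1, at a log2 ratio over scr of 1.48, and miR-93-5p and scr differed by 0.12. Its counterpart in RNA-seq was lowest in mutant, at 369 FPKM. Ldha was at 910, 157 and 491 FPKM, lowest in miR-93-5p.

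Low pulldown values in miR-93-5p were common among abundant genes. Over the 586 genes with a mean of at least 100 FPKM in RNA-seq, an alternative chosen after the values had been seen, 55.6% stood 2-fold or more below scr in miR-93-5p and 8.02% above, with a median log2 ratio of -1.20. Of the 8 members among them 7 were lower and 0 higher, with a median of -3.18. Over mutant all 8 were lower, against 39.9% of these genes, and 0 higher, against 2.56%. For mutant over scr 4 of the 8 were lower and 1 higher, against 34.0% and 20.0%. In implied fragments the members' median for miR-93-5p over scr was -0.05 instead of -2.10, and 5 instead of 10 were at least 2-fold lower. Among these were Pfkl (-1.72), Pkm (-1.27), Eno1 (-1.27) and Gpi1 (-1.20). The other enzymes compared were under 2-fold, Gapdh at -0.60, Aldoa at -0.34, Tpi1 at -0.05, Pgk1 at 0.03 and Pgam1 at 0.64. Over mutant in the same measure, Pgam1 (-3.81), Pfkl (-2.24) and Pkm (-1.06) were the enzymes at least 2-fold lower. The rest were under 2-fold, Gpi1 at -0.87, Tpi1 at -0.29, Eno1 at -0.24, Gapdh at 0.11, Pgk1 at 0.24 and Aldoa at 0.27. The share of all genes past 2-fold in this measure was not counted. Of the 487 scr pulldown genes with at least 200 FPKM, 439 had fewer than 2600 implied fragments, and which measure lies nearer to the level was not tested.

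Several other hypoxia targets were lowest in scr and highest in mutant. Over all 17 members compared, scr was lowest for 6 (35.3%, against 29.1% of all 5244 genes). Mutant was highest for 7 (41.2%, against 39.1%), so the members as a set lie near the shares of all genes. Ankrd37, an ankyrin repeat protein, was at 9.36 FPKM for scr (bounds 7.28 to 11.4), 22.7 for miR-93-5p (19.1 to 26.3) and 72.7 for mutant (66.9 to 78.4). Ddit4 was at 39.8 FPKM for scr (36.9 to 42.7), 125 for miR-93-5p (120 to 129) and 251 for mutant (238 to 263). For both genes scr was lowest and mutant highest, and they were the 2 members at least 2-fold higher in miR-93-5p than in scr, at log2 ratios of 1.19 and 1.62. In mutant over scr the ratios were 2.83 and 2.62.

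Bnip3 was at 27.2 FPKM for scr (24.4 to 30.0), 30.8 for miR-93-5p (27.6 to 34.0) and 191 for mutant (181 to 202). Mutant stood apart, 2.77 above scr on the log2 scale, and miR-93-5p and scr differed by 0.17. P4ha1 was at 5.84 FPKM (scr) and 40.5 (mutant), a log2 ratio of 2.60, with no matched locus in miR-93-5p. Egln1 was at 13.1, 20.4 and 37.4 FPKM, also lowest in scr and highest in mutant. In implied fragments the mutant over scr ratio was 2.66 for Ankrd37, 1.69 for Bnip3, 0.94 for Ddit4 and 0.76 for Egln1, so the last 2 came out under 2-fold. For Ddit4 the order of the overexpressing libraries also turned, with a log2 ratio of miR-93-5p over mutant of 1.57 in implied fragments and a plain FPKM ratio of 0.498. The deposited bounds of Ddit4 in mutant are wider for its level than in miR-93-5p, at 1683 against 2859 implied fragments.

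Vegfa, a reported target of the microRNA family, was at 11.5 FPKM for scr, 21.2 for miR-93-5p and 14.4 for mutant. It was the 1 member of the 17 that was highest in the miR-93-5p pulldown, with ratios (log2) of 0.83 against scr and 0.53 against mutant, both under 2-fold. In implied fragments its ratio over scr was 1.16. Over all 5244 genes 15.1% were highest in that library. Hif1a, the other reported target, was at 5.76 FPKM (scr) and 2.60 (mutant), and in miR-93-5p a single stretch of 1905 bp was listed at 3.02 FPKM. Ndrg1, a stress-responsive gene, was at 91.2, 55.1 and 97.8 FPKM, lowest in miR-93-5p.

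The kinases of pyruvate dehydrogenase differed from each other in the pulldown. Pdk3 was at 8.67 FPKM for scr (7.47 to 9.87), 3.49 for miR-93-5p (2.49 to 4.48) and 1.10 for mutant (0.701 to 1.51). The 3 ranges do not overlap and scr is highest, but each range reflects counting within 1 library and not spread between cultures. Pdk3 was the 1 member at least 2-fold higher in miR-93-5p than in mutant, at 1.09. With a pseudocount of 5 FPKM 0 members were, and the mutant value is low in a list that begins at 0.41 FPKM. Pulldown loci thus existed in the 2 groups whose RNA-seq library had none. Pdk1 was at 3.07 FPKM (scr) and 10.1 (mutant), a log2 ratio of 1.45.

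Transporter and hexokinase messages were measured in scr and mutant. Slc2a1 was at 14.8 and 8.95 FPKM, Hk1 at 33.6 and 9.34, and Hk2 at 5.94 and 2.42, with mutant lower for all 3. Pfkm was at 34.8 and 11.8 FPKM and Pfkp at 9.17 and 3.82. Egln3 had 1 stretch of 8397 bp in the mutant library at 0.660 FPKM, covering 0.34 of the joint length.

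**Figure D3:**
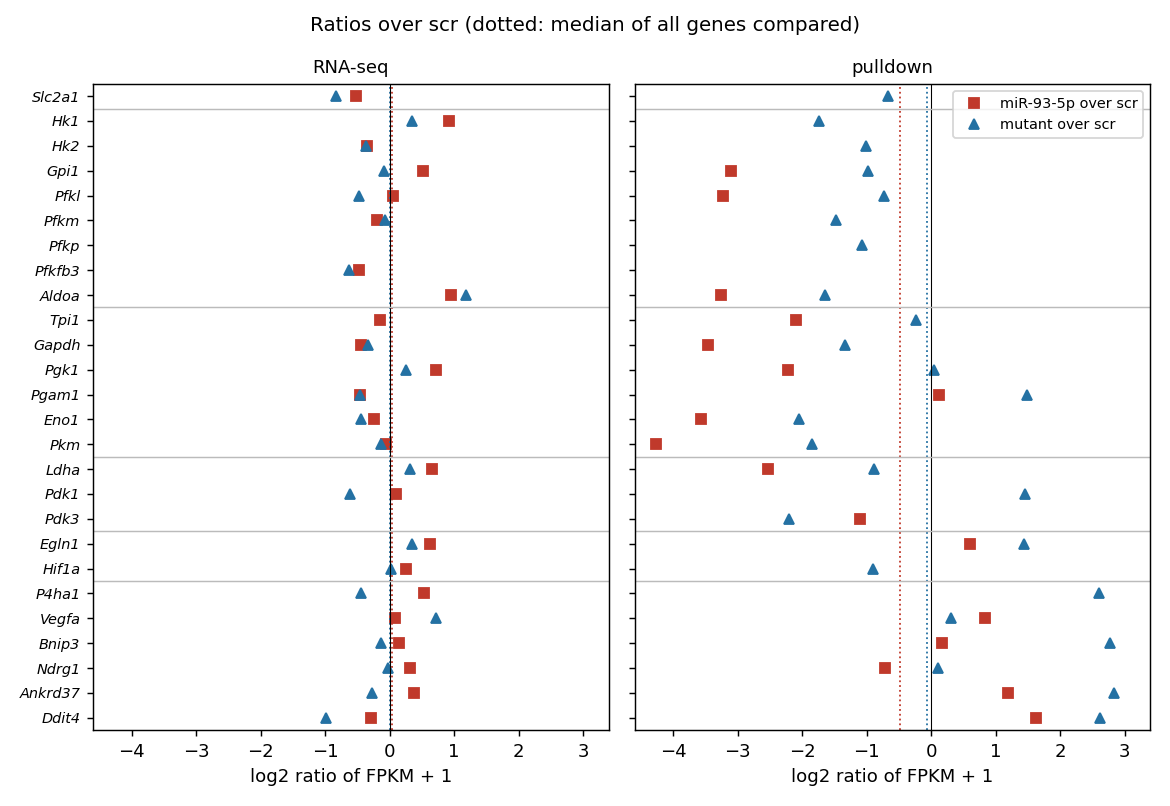
Log2 ratios over scr of each member for miR-93-5p (squares) and mutant (triangles), from FPKM + 1 of genes matched in both libraries of a contrast, in RNA-seq (left) and the pulldown (right). Dotted lines mark the median of all genes matched in all 3 libraries of the assay, and n = 1 library per group. RNA-seq ratios lie between -0.98 and 1.18, and pulldown ratios between -4.27 and 2.83, with enzymes mostly left and hypoxia targets mostly right of 0.

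Set side by side, the assays gave different values for the same member, with opposite signs for some members and the same sign for others. In mutant over scr Ddit4 was at -0.98 in RNA-seq and 2.62 in the pulldown, Ankrd37 at -0.28 and 2.83, and Bnip3 at -0.14 and 2.77. Aldoa, at 1.18 in RNA-seq, was at -1.65 in the pulldown, and Pgam1, at -0.46, was at 1.48. Signs were the same for Gapdh (-0.34 and -1.34), Eno1 (-0.45 and -2.05) and Pkm (-0.13 and -1.85), among others. They were also the same for Egln1 (0.34 and 1.44) and Vegfa (0.72 and 0.30). Each assay has its own scr library, and the loci of the assays lie on different builds, so the difference between assays was not tested.

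H3K4me3, a mark of active promoters, covered most members in both groups. A peak overlapped 27 of 31 member genes in scr (56.3% of all genes) and 25 in miR-93-5p (56.6%). In each group 24 members had a peak with a score of 3100, a value shared by 59.8% of the scr peaks, so scores do not rank them. Slc2a3, Pfkp, Slc16a3 and Adm had no peak in either group. All 4 also lacked a usable RNA-seq level. Car9 and Pdk3 had a peak in scr alone, and over all genes 1.0% had a peak in scr and none in miR-93-5p. The reverse held for 0 members and 1.29% of genes.

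The annotated 5' end lay inside a peak for 21 of 29 members with a known strand in scr (51.5% of all genes) and for 19 in miR-93-5p (51.1%). The 2 that differed were Pdk3 and Pgk1, and at Pgk1 the miR-93-5p peak began 14 bp inside the gene, so that it is near the same place. At Ldha, Hif1a and Hk1 the peaks lay inside the locus, at Ldha from 2706 bp and at Hk1 from 38146 bp downstream of the annotated end in scr. Member peaks with a score of 3100 had a median width of 4171.5 bp in scr and 4357.5 bp in miR-93-5p, against 2951 and 3047 bp over all such peaks. The widest of these at a member was that of Pkm, 8799 bp in scr (mm9 chr9:59501322-59510120) and 10919 bp in miR-93-5p (chr9:59500789-59511707), wider than 99.31% and 99.68% of such peaks.

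**Figure D4:**
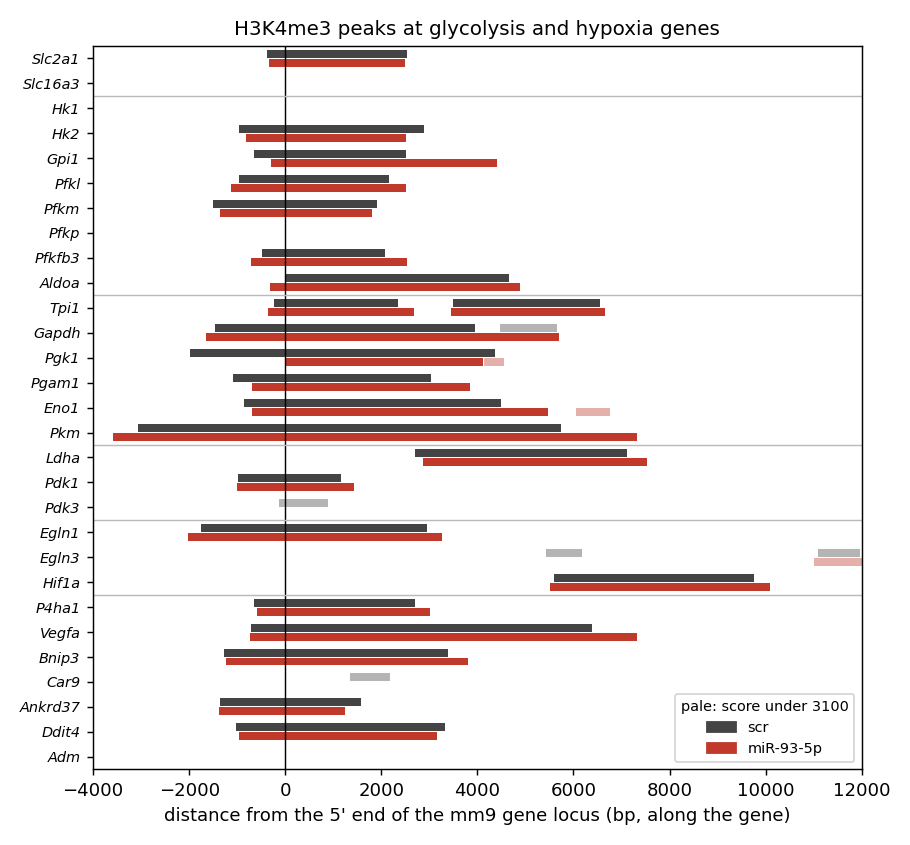
H3K4me3 peaks of scr (grey) and miR-93-5p (red) at the 29 members with a known strand, as distance in bp along the gene from the 5' end of its mm9 locus (pale bars have scores under 3100, and peaks beyond 12000 bp, such as those of Hk1, lie outside the axis). The bars of both groups cover nearly the same stretch at most members, and the pale scr bar of Pdk3 has no miR-93-5p counterpart.

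At Pdk3 the 3 marks differed between the lists. In scr an H3K4me3 peak of 1028 bp with a score of 111.88 lay from -135 to 893 bp around the 5' end (mm9 chrX:91076648-91077675), and no H3K27me3 or H3K9me3 peak overlapped the gene. In miR-93-5p no H3K4me3 peak overlapped it, an H3K9me3 peak of 671 bp lay over the same end (chrX:91077041-91077711), and 2 H3K27me3 peaks with scores of 87.5 and 56.9 lay inside the gene. The H3K9me3 score was 50.05 in a list that begins at 50, so that peak is at the limit of what was called. The scr H3K4me3 peak is weak in its own list, whose median score is 3100.

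Repressive marks touched few members. H3K27me3, the Polycomb mark, overlapped Slc2a3, Hk1, Pfkp and Car9 in scr and Slc2a3, Hk1, Pfkp and Pdk3 in miR-93-5p, 4 of 31 in each, against 20.4% and 19.0% of all genes. The 5' end of 0 of 29 members lay in such a peak in either group, against 6.81% of genes in scr and 2.45% in miR-93-5p. At Slc2a3 it covered 20562 bp in 17 peaks in scr (27.8% of the gene) and 2138 bp in 6 peaks in miR-93-5p. At Pfkp it covered 10478 bp in 5 peaks and 6862 bp in 12 peaks. The lists as a whole covered 60.0 Mb in scr and 23.7 Mb in miR-93-5p, so less was called in miR-93-5p at large, and the part of that in these values was not tested.

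H3K9me3, a mark of heterochromatin, overlapped Egln1 and Ndrg1 in scr (2 of 31, against 15.4% of all genes) and Hk1, Pdk3, Egln1, Egln3 and Ndrg1 in miR-93-5p (5 of 31, against 20.2%). These lists covered 21.6 and 39.2 Mb. In miR-93-5p the 5' ends of Pdk3 and Egln3 lay inside such a peak, 2 of 29 members, against 3.61% of all genes, and in scr 0 did, against 2.32%. The Egln3 peak was 1452 bp wide (mm9 chr12:55303496-55304947) with a score of 185.11, and no RNA-seq locus overlapped Egln3 in any group.

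Beside the members, 68 other genes of glycolysis, its side branches and the hypoxia response were followed. In RNA-seq 44 were compared, of which 0 were at least 2-fold higher and 4 lower in miR-93-5p than in scr, beside 2.97% and 3.86% of all genes. Among the lowest ratios was that of Pklr, the liver pyruvate kinase, at 16.8 (scr), 3.45 (miR-93-5p) and 9.74 FPKM (mutant). The highest belonged to the glycogen synthase Gys1, at 10.4, 21.0 and 15.7 FPKM, and to the hypoxia-induced mitochondrial protein Fam162a, at 57.3, 104 and 62.2, both under 2-fold on the log2(FPKM + 1) scale, although the plain FPKM of Gys1 was just past 2-fold.

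In the pulldown 30 of these genes were compared, and 4 were at least 2-fold higher and 6 lower in miR-93-5p than in scr, beside 11.8% and 33.5% of all genes. For mutant over scr 10 were higher and 4 lower, beside 21.8% and 22.9%. Insig2, a regulator of sterol synthesis, was at 5.88, 22.3 and 19.4 FPKM, and Fam162a at 372, 934 and 2170, both lowest in scr. The hypoxia target Fam162a had the order of libraries seen for Ankrd37 and Ddit4, an order not shared by all hypoxia genes of this list. How many genes of the list had that order was not counted. Anxa2, a membrane-binding annexin, was at 417, 58.4 and 231 FPKM, and Pgls, an enzyme of the pentose phosphate branch, at 113, 16.4 and 31.1, both lowest in miR-93-5p like the glycolytic enzymes.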

How the data were processed

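RNA-seq and pulldown files give FPKM per assembled locus with bounds, per the file headers; peak files give 1 score per deposited peak, called per library. TopHat2, Cufflinks, Cuffdiff, CASAVA 1.4, Bowtie, MACS and mm9 are named in the submitters' processing notes; their settings are not given in the sources used here, nor is whether counting used strand. Gene lists and members were chosen with earlier results of these data known. Gene loci on mm9 in the deposited files gave names to peaks and RNA-seq loci; pulldown loci matched the GRCm38.p6 gene table, not mm9, and were named through it. Genes matched in all 3 libraries with a mean of at least 1 FPKM were compared as log2(FPKM + 1). A peak counted where it overlapped a gene by at least 1 bp. Scripts were tested on simulated data. All members are named; other pathway genes are the 2 highest and 2 lowest ratios over scr per assay, of which 1 is not reported here. Input samples were not analysed here. Counting depth sets the deposited bounds; RNA-seq loci held 14589704 to 19513879 implied fragments and pulldown loci 3814082 to 5855469. Alternatives changed pseudocount, filter, matching, scaling, measure, peak score and overlap. Python 3.11.15, pandas 2.3.3, numpy 2.4.6 and matplotlib 3.10.9 were used.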

Additional observations from a re-analysis of the deposited data

How the results depend on the processing

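No paired analysis was possible because each group had 1 library per assay, which leaves no test and no replicate to leave out. Of 171 values recomputed under alternatives, 131 kept their sign and stayed within 1.5 times (medians within that factor of the linear ratio). Of the rest, 38 moved further and 2 changed sign. The 131 include values that could not move. Every member compared had a mean of at least 1 FPKM, so the 18 values recomputed without that filter were fixed in advance. Matching in both libraries of a contrast kept the same members in most contrasts, and 17 of its 18 values are among the 131. The cause of a move was not tested. By construction, however, stricter matching, the 100 FPKM minimum and stricter peak rules leave fewer members or peaks. Comparing genes of at least 100 FPKM in RNA-seq and genes matched in both libraries of a contrast were chosen after seeing the data. For changed pseudocounts, scaling, shared length, minimum overlap and implied fragments, the share of all genes past 2-fold was not counted. In RNA-seq, implied fragments put 3 members at least 2-fold higher in miR-93-5p than in scr and 4 than in mutant. A pseudocount of 0.1 FPKM put 1 higher in miR-93-5p than in mutant and 1 lower in mutant than in scr. Without a minimum overlap 1 was lower in miR-93-5p than in mutant and 2 higher in mutant than in scr, and with a shared length of at least 0.9 the latter were 0. In the pulldown, miR-93-5p over scr, the members at least 2-fold higher numbered 1 with a pseudocount of 5 FPKM, 4 with scaling to a median ratio of 1, and 0 with a shared length of 0.9 or with genes of at least 100 FPKM. Those lower numbered 5 with a shared length of 0.9 or implied fragments. The median log2 ratio was -1.47 with a shared length of 0.9, -1.13 without a minimum overlap, -0.05 in implied fragments and -3.18 with genes of at least 100 FPKM. For miR-93-5p over mutant, 0 were higher with a pseudocount of 5 FPKM, a shared length of 0.9 or genes of at least 100 FPKM, and 2 without a minimum overlap or in implied fragments. Those lower numbered 7 with a shared length of 0.9 and 5 in implied fragments, where the median was -0.24. For mutant over scr, the members higher numbered 3 with a shared length of 0.9 or implied fragments and 1 with genes of at least 100 FPKM, where the median was -1.16. That median, -0.23 as reported, turned to 0.07 with a shared length of 0.9 and 0.04 in implied fragments, and was -0.77 without a minimum overlap and -0.74 matched in both libraries. Those lower numbered 2 with a shared length of 0.9 or implied fragments, and 9 without a minimum overlap or matched in both libraries. With a peak score of at least 100, H3K27me3 overlapped 2 members in scr and 1 in miR-93-5p and H3K9me3 overlapped 1 and 2. With an overlap of at least 500 bp, H3K27me3 overlapped 1 in miR-93-5p. The shares of all genes under these peak rules are not given here, so these counts do not compare the members with genes at large. Peak scores and bounds come from single libraries, so no difference here has an estimate of biological spread, and levels near the lowest listed FPKM rest on few fragments.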
